A study of Mus musculus with 9 samples.

Results

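The genes described here are the mouse major histocompatibility complex (MHC) class I and class II genes with the partners they need: every symbol that starts with H2- apart from H2-Ke6, and B2m, Cd74, Ciita, Nlrc5, Tap1, Tap2, Tapbp and Tapbpl. The rule uses names only and found 52 of the 55367 symbols in the count table. Of these, 31 are class I heavy chains or their pseudogenes and 6 are class I partners, which makes 37 class I members. Another 12 are class II chains or their pseudogenes and 2 are class II partners, which makes 14 class II members. The last, H2-K2, is a pseudogene set in neither class.

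MHC class I molecules are a heavy chain joined to beta-2 microglobulin (B2m), are found on nearly all nucleated cells, and show peptides from the cytosol to CD8 T cells and natural killer (NK) cells. Class II molecules pair an alpha and a beta chain, are made mainly by dendritic cells, macrophages and B cells, and show peptides from the endocytic route to CD4 T cells. Transcription of class I genes is raised by Nlrc5 and that of class II genes by Ciita, which both act with the factors Rfx, Creb1 and NF-Y on a shared promoter module, and interferon-gamma induces both coactivators. In the heart, resident and recruited macrophages and dendritic cells are known carriers of class II, while class I is also carried by endothelial cells and fibroblasts.

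RNA of mouse left ventricle was sequenced in 9 bulk libraries: 3 labelled Sham, 3 labelled MI (myocardial infarction) and 3 labelled MI+BPD (infarction and BPD treatment). The MI and MI+BPD hearts were taken at day 14 after infarction, and the sampled tissue takes in the infarct core and the tissue around it, which a sham heart does not have. The series set out to ask whether BPD given in the proliferative phase of repair goes with less fibroblast activation, and MHC genes are not named in that aim. The labels give neither what BPD stands for nor its dose, nor the strain, age or sex of the mice, the time of the sham hearts, or whether each library is a separate animal. The p-values therefore measure the spread between these libraries, which may be technical in part. In bulk tissue, fewer cells of a type and less RNA per cell cannot be told apart.

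Library totals ran from 14451410 to 19269072 counts, and the 52 genes together held 0.0589% to 0.0735% of the counts in sham, 0.204% to 0.335% in MI and 0.123% to 0.232% in MI+BPD. Levels are given as CPM, counts scaled to library size with TMM (trimmed mean of M values) factors, on which 1 read was worth 0.0396 to 0.0915 CPM. Some libraries stood apart within their group. MI replicate 1 had a summed level of 8 B cell markers of 71.3 CPM against 10.2 and 6.49 in the other MI libraries. MI+BPD replicate 1 had a summed level of 7 cardiomyocyte markers of 33400 CPM against 21529 and 21007, and MI replicate 3 had 22105 CPM against 12501 and 13339. Mitochondrial genes took 34.4% to 35.2% of counts in sham, 11.4% to 18.2% in MI and 17.6% to 25.7% in MI+BPD. Each comparison with sham thus carries a difference in heart muscle transcripts.

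Promoters of 6 members whose transcripts rose in MI are shown because parts of the shared module have a similar spacing in them, for which they were chosen after the search. The choice says nothing of a link between the module and the rise. The stretches run from 145 to 26 bases before the RefSeq transcription start (build GRCm38.p6), 5′ to 3′ on the gene's strand. Capitals mark matches, on either strand, to the letters of the searched motifs: ATTGG (the core of the Y box, which NF-Y binds), TGACG or TGATG (forms of the X2 box), GCAAC (one part of the X box), and GAAA followed by 2 bases of any kind and GAAA (an interferon-stimulated response element). The first 3 belong to class II, with H2-Aa at chr17:34287849-34287968, minus strand, H2-Eb1 at chr17:34305722-34305841, plus strand and H2-Ob at chr17:34238760-34238879, plus strand. The others belong to class I, with H2-D1 at chr17:35262949-35263068, plus strand, H2-K1 at chr17:34000359-34000478, minus strand (the first of 2 listed starts) and B2m at chr2:122147542-122147661, plus strand.
H2-Aa: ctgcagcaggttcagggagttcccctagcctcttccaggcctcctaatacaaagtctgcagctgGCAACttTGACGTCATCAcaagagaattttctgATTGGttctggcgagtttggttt
H2-Eb1: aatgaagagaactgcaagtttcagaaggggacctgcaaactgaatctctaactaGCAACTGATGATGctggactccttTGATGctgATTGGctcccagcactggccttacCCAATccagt
H2-Ob: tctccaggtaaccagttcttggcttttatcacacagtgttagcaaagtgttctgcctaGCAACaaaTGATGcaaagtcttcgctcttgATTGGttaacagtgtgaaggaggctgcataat
H2-D1: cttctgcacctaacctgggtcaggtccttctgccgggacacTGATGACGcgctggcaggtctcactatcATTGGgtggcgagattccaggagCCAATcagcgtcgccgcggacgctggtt
H2-K1: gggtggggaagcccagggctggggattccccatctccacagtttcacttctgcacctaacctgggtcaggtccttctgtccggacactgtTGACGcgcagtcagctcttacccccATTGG
B2m: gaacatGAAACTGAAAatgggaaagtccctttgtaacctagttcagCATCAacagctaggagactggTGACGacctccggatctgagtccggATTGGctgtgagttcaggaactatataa
In these stretches the nearest TGACG or TGATG that lies at least 10 bases ahead of ATTGG on the gene's strand started 26 bases before it in H2-Aa, 24 in H2-Eb1, 22 in H2-Ob, and 25 in each of H2-D1, H2-K1 and B2m. The distance to the transcription start differed, as that ATTGG lay 30 bases before it in H2-K1 and 76 in H2-D1. H2-T23, which also rose in MI, had no such pair on the gene's strand and is not shown. Over the whole 250 bases before the start, a TGACG or TGATG 10 to 40 bases upstream of an ATTGG, on either strand for each, was found in 8 of 12 windows of tested class I members and 6 of 8 windows of tested class II members, against 3.94% of all 32851 RefSeq windows of that length. ATTGG alone was in 12 of 12 class I and 7 of 8 class II windows against 33.8% of all windows. The interferon-stimulated element was in 3 of 12 class I windows and 0 of 8 class II windows against 2.98% of all. GCAAC was in 3 of 12 class I and 5 of 8 class II windows against 29.9%. TGACG was in 9 of 12 class I windows and 1 of 8 class II windows against 17.8%, and TGATG in 9 of 12 and 7 of 8 against 34.5%. The TGACG and TGATG matches can overlap each other. The table held windows for 34 of the 52 members, 18 of them tested below, and a match of letters is not a bound site.

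Of the 52 members, 12 had no count in any library: the class I genes H2-M10.1, H2-M10.2, H2-M10.3, H2-M10.4, H2-M10.5, H2-M10.6, H2-M10.5-ps1, H2-T3 and H2-Q3, and the class II genes H2-Ea, H2-Pa and H2-Pb. A count of 0 allows up to 3 reads a library, which is 0.119 to 0.274 CPM, a limit that covers counting error only. H2-Ea encodes the alpha chain that pairs with the H2-Eb1 beta chain, and H2-Eb1 itself held 518, 461 and 461 counts in sham. In mice of the H2b haplotype the H2-Ea gene is known not to be transcribed, and the labels give no strain. A further 12 members had counts but too few for the test, which leaves 28 tested genes: 11 class I heavy chains, 6 class I partners, 8 class II chains, 2 class II partners and H2-K2. Per kilobase of exon in GENCODE M21 (the authors' own annotation is not given in the sources used here), B2m was the most abundant in MI at 597 CPM per kilobase, ahead of Cd74 at 138, H2-D1 at 131, H2-K1 at 86.6 and H2-Eb1 at 71.2. Sham had the same gene first, at 256 CPM per kilobase, followed there by H2-D1 (58.1), Cd74 (40.3) and H2-K1 (38.6).

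MI against sham sets the infarcted ventricle beside the ventricle of mice with sham surgery. Most tested members of both classes were higher in MI, with the larger median change over class II. Of the 17 tested class I members 11 rose and 1 fell, and of the 10 tested class II members 10 rose, with the threshold for a call set at an adjusted p of 0.05 in edgeR's quasi-likelihood test with Benjamini-Hochberg adjustment over 15138 genes. Across all 15138 genes 37% were called higher and 31.9% lower, so that 53.6% of the called genes were higher, or 85.6% when scaled by library totals alone. The median log2 fold change was 1.06 over the tested class I members, 1.90 over the tested class II members and 0.07 over all tested genes. With that scaling the all-gene median moved up by 0.73 to 0.81, 16 class I members were called higher and 0 lower, and the class medians stood 0.99 (class I) and 1.84 (class II) above the median of all genes, against 0.98 and 1.82 with TMM factors. The H2-K, H2-D, H2-Q and H2-T genes are close copies of one another, so how reads were split among them is uncertain. Among the class II members counted, H2-Eb2 had enough reads for the test only through its MI libraries. For H2-DMb2 and H2-Ob the sham libraries alone had too few reads, so a rise over sham was favoured by the filter.

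**Figure D1:**
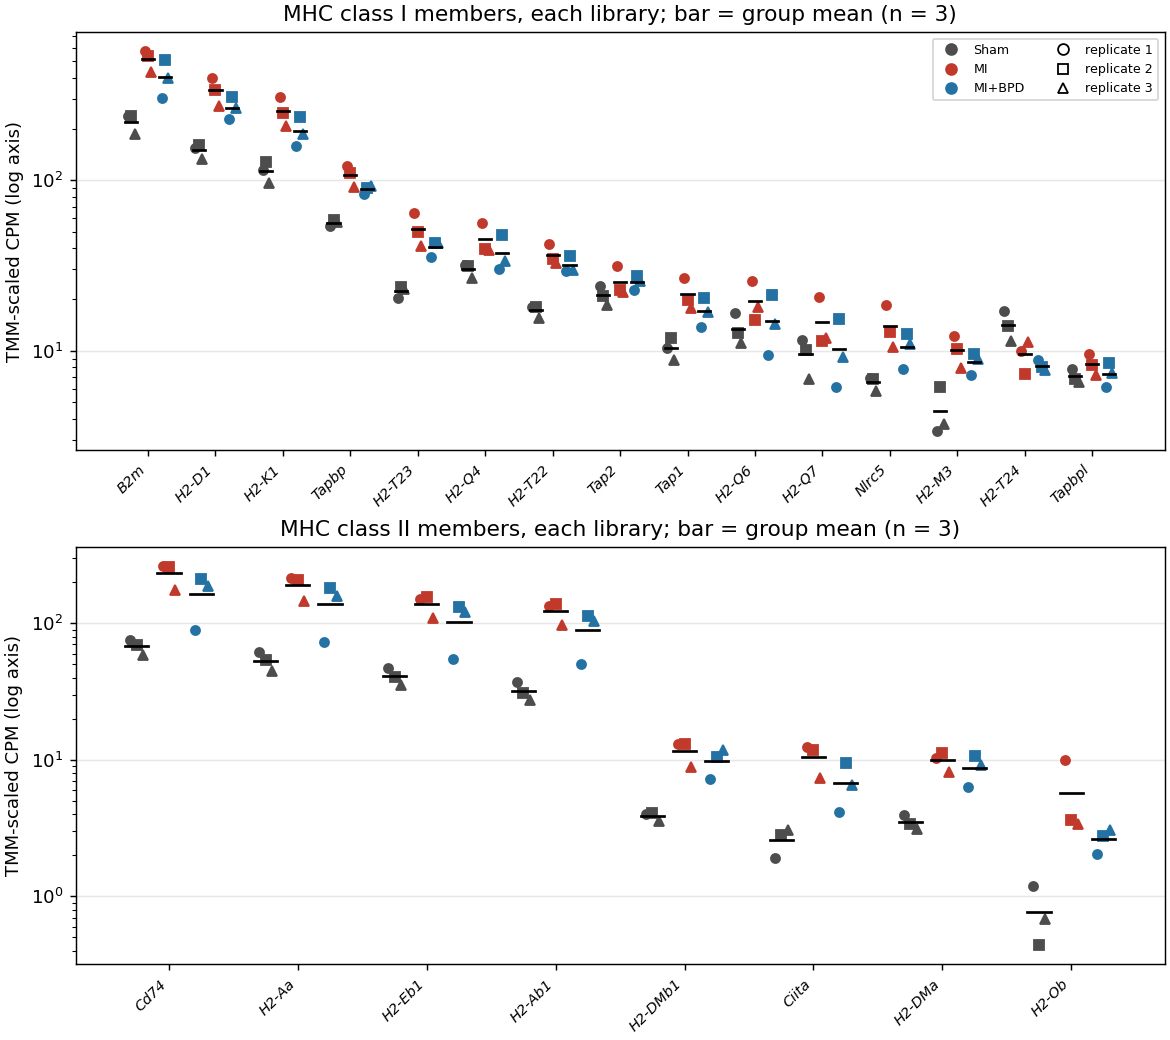
TMM-scaled CPM of the tested class I members (upper panel) and class II members (lower panel) with a mean of at least 5 CPM in a group, on a log axis; each point is 1 library, its colour the group and its shape the replicate number, and the bar is the mean of 3 libraries. All 8 class II members shown have their 3 MI libraries above their 3 sham libraries, and MI+BPD replicate 1 is the lowest MI+BPD library in each of the 8.

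Among the classical class I heavy chains, which present peptides to CD8 T cells, H2-D1 had 155, 161 and 134 CPM in the 3 sham libraries and 396, 341 and 273 in MI, beside 228, 307 and 264 in MI+BPD. Every MI and MI+BPD library was above every sham library, and the highest MI+BPD library lay within the MI range. H2-D1 rose in MI by a log2 fold change of 1.17 ± 0.16 (SE; adjusted p = 2.30e-04), a 2.25-fold difference. H2-K1 read 115, 128 and 96.8 CPM in sham and 307, 249 and 208 in MI, with 158, 235 and 186 in MI+BPD, with the same order of groups, and rose in MI by 1.17 ± 0.19 (adjusted p = 4.85e-04). Both genes moved alike, as H2-K1 had 0.723 to 0.799 counts per H2-D1 count in sham, 0.729 to 0.776 in MI and 0.695 to 0.768 in MI+BPD. Together both genes made up 68.4% to 70.3% of all class I heavy chain counts in sham, 74.0% to 76.7% in MI and 74.1% to 74.6% in MI+BPD. Their share was thus higher in every MI and MI+BPD library than in every sham library.

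Of the nonclassical class I genes, which are less variable and often bind special ligands, 4 rose by about as much. H2-T23, whose product presents leader peptides of other class I chains to inhibitory receptors of NK cells, stood at 20.3, 23.6 and 22.9 CPM in sham and 64.7, 50.0 and 41.1 in MI, beside 35.5, 42.8 and 43.1 in MI+BPD. It rose in MI by 1.22 ± 0.16 on the log2 scale (adjusted p = 1.81e-04). H2-T22, a ligand of some gamma-delta T cell receptors, had 18.1, 18.1 and 15.5 CPM in sham against 42.4, 34.7 and 32.9 in MI, with 29.2, 36.1 and 29.6 in MI+BPD, a rise in MI of 1.09 ± 0.13 (adjusted p = 1.11e-04). In both genes the sham libraries lay below all others. H2-M3, which presents peptides with a formylated first residue such as those of bacteria and mitochondria, had 3.39, 6.12 and 3.74 CPM in sham and 12.2, 10.3 and 7.96 in MI, beside 7.19, 9.60 and 8.89 in MI+BPD. Its rise in MI was 1.20 ± 0.24 (adjusted p = 0.00180). H2-T10, a close relative of H2-T22, rose by 1.10 ± 0.21 (adjusted p = 0.00137) at 1.14 to 3.48 CPM over the 9 libraries.

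The H2-Q genes, whose proteins include the membrane-anchored Qa-2 antigens, differed less. H2-Q4 had 31.9, 31.4 and 26.8 CPM in sham and 56.1, 39.8 and 39.1 in MI, with 30.4, 48.0 and 33.6 in MI+BPD. Its rise in MI was 0.58 ± 0.19 (adjusted p = 0.0232), and the call ended without sham replicate 2 (adjusted p = 0.0518), sham replicate 3 (0.0873) or MI replicate 1 (0.0877). H2-Q6 had 16.7, 12.8 and 11.1 CPM in sham and 25.8, 15.1 and 17.9 in MI, beside 9.46, 21.2 and 14.4 in MI+BPD, so the groups overlapped. H2-Q7 had 11.6, 10.1 and 6.86 CPM in sham and 20.8, 11.5 and 11.9 in MI, with 6.17, 15.4 and 9.14 in MI+BPD, again with overlap. Neither passed the test, with log2 differences of 0.54 ± 0.30 (adjusted p = 0.135) and 0.64 ± 0.36 (adjusted p = 0.140), and 95% intervals of -0.19 to 1.28 and -0.24 to 1.51. H2-Q5, at 2.10 to 5.19 CPM, did not pass either (0.33 ± 0.33, adjusted p = 0.398). All H2-Q genes together held 14.1% to 16.1% of class I heavy chain counts in sham, 9.35% to 11.4% in MI and 9.41% to 12.2% in MI+BPD. The pseudogene H2-K2 had a log2 difference of 0.29 ± 0.22 (adjusted p = 0.258) at 2.28 to 4.67 CPM.

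H2-T24, a nonclassical class I gene, was the 1 member that fell. It had 17.2, 13.9 and 11.4 CPM in sham and 9.98, 7.33 and 11.2 in MI, beside 8.80, 8.06 and 7.72 in MI+BPD. The lowest sham library was above the highest MI library by a narrow margin, and all MI+BPD libraries were below all sham libraries. In MI it fell by 0.57 on the log2 scale (SE 0.19; adjusted p = 0.0201), and in MI+BPD against the same sham libraries by 0.79 (SE 0.19; adjusted p = 0.00594). Scaled by library totals alone, the MI value turned to 0.15 (adjusted p = 0.450), though it then stood below the 0.81 of the median gene, and the MI+BPD value to -0.27 (adjusted p = 0.210). Without sham replicate 1 or MI replicate 2 the MI value was -0.42 and not called (adjusted p = 0.0854 and 0.0652).

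Class I molecules are loaded with peptide in the endoplasmic reticulum, and 4 of the 6 class I partners rose. B2m, the shared light chain, had 237, 238 and 186 CPM in sham and 572, 538 and 432 in MI, with 305, 509.9 and 400.4 in MI+BPD, and rose in MI by 1.22 ± 0.20 (adjusted p = 5.55e-04). B2m kept pace with the heavy chains, at 0.806 to 0.878 counts per count of H2-K1 and H2-D1 together in sham, 0.814 to 0.912 in MI and 0.790 to 0.941 in MI+BPD. Tapbp (tapasin, which holds empty class I molecules at the peptide transporter) had 53.7, 58.3 and 57.0 CPM in sham and 122, 111 and 91.7 in MI, beside 82.8, 90.5 and 92.1 in MI+BPD, with a rise in MI of 0.94 ± 0.11 (adjusted p = 8.94e-05). Nlrc5, the class I coactivator, had 6.95, 6.82 and 5.79 CPM in sham and 18.6, 12.8 and 10.5 in MI, with 7.85, 12.6 and 11.0 in MI+BPD, a rise in MI of 1.10 ± 0.24 (adjusted p = 0.00262). For these 3 genes all MI libraries were above all sham libraries.

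The peptide transporter is a pair of Tap1 and Tap2, and Tap1 alone passed the test in MI. Tap1 had 10.4, 11.8 and 8.84 CPM in sham and 26.9, 19.9 and 17.8 in MI, beside 13.7, 20.5 and 16.9 in MI+BPD, and rose in MI by 1.06 ± 0.20 (adjusted p = 0.00118). Tap2 had 24.0, 20.9 and 18.5 CPM in sham and 31.2, 22.7 and 22.1 in MI, with 22.7, 27.6 and 25.7 in MI+BPD. Its groups overlapped, and the log2 difference of 0.27 ± 0.15 did not pass (adjusted p = 0.148; 95% interval -0.11 to 0.64). With library totals only it was called at 1.01 (adjusted p = 8.51e-04), above the 0.81 of the median gene. Tapbpl, a peptide editor related to tapasin, had 7.87, 6.82 and 6.56 CPM in sham and 9.62, 8.31 and 7.23 in MI, beside 6.17, 8.52 and 7.36 in MI+BPD and did not pass either (0.25 ± 0.16, adjusted p = 0.196). With library totals only Tapbpl was called at 0.99 (adjusted p = 0.00145). The difference in response between Tap1 and Tap2 was not tested.

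Of the class I members with too few reads for the test, 5 had more than 6 counts in some library, and the highest count of each was in an MI library. H2-M9 had 56, 3 and 1 counts in MI and 0 in all sham and MI+BPD libraries, at least 9.92-fold higher in MI than 3 counts over the sham group, and nearly all of its reads came from MI replicate 1. H2-M5 had 0, 1 and 1 counts in sham and 24, 20 and 6 in MI, with 3, 7 and 3 in MI+BPD, a ratio of MI to sham of 12.4 with a 95% exact binomial counting interval of 3.26 to 105. H2-M2 had 1, 0 and 0 counts in sham and 6, 9 and 1 in MI, a ratio of 7.93 (1.23 to 333). H2-Q10, known as a secreted class I protein made in liver, had 1, 6 and 2 counts in sham and 8, 58 and 3 in MI, with 10, 2 and 3 in MI+BPD, so that 1 MI library held most of them. H2-T-ps had 0, 2 and 3 counts in sham and 19, 9 and 5 in MI, beside 5, 6 and 8 in MI+BPD. H2-M11, H2-M6-ps, H2-Q2, H2-Bl, H2-Q1 and H2-M1 had at most 6 counts in any library.

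Class II chains rose in MI without exception among those tested. The alpha chain H2-Aa had 62.0, 53.4 and 44.5 CPM in sham and 216, 208 and 145 in MI, beside 73.3, 181 and 159.5 in MI+BPD. Every MI library was above every sham library, and MI+BPD replicate 1 was the lowest library outside sham. H2-Aa rose in MI by 1.83 ± 0.31 (3.56-fold; adjusted p = 6.55e-04). Its partner, the beta chain H2-Ab1, had 37.1, 30.6 and 27.4 CPM in sham and 135, 139.5 and 97.6 in MI, with 50.5, 113 and 104 in MI+BPD, and rose by 1.97 ± 0.29 (3.92-fold; adjusted p = 2.83e-04). The beta chain H2-Eb1 had 47.4, 40.3 and 35.1 CPM in sham and 151, 155 and 109 in MI, beside 54.8, 131 and 122 in MI+BPD, a rise of 1.76 ± 0.30 (adjusted p = 6.78e-04). The order of the libraries was nearly the same in the 3 chains. A further beta chain, H2-Eb2, had 0, 1 and 0 counts in sham and 30, 14 and 12 in MI, with 1, 7 and 4 in MI+BPD. Its ratio of MI to sham was 27.8 (95% exact binomial counting interval 4.78 to 1116; adjusted p = 0.00236). H2-Eb2 had enough reads for the test only through its MI libraries, so its rise was favoured by the filter.

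The class II partners followed the chains. Cd74, the invariant chain that guides class II molecules to the endosome, had 75.1, 69.4 and 58.6 CPM in sham and 264, 259 and 174 in MI, with 88.9, 211 and 188 in MI+BPD, and rose in MI by 1.78 ± 0.30 (3.43-fold; adjusted p = 6.28e-04). Ciita, the class II coactivator, had 1.92, 2.80 and 3.05 CPM in sham and 12.3, 11.8 and 7.41 in MI, beside 4.13, 9.50 and 6.55 in MI+BPD, and rose by 2.01 ± 0.34 (4.04-fold; adjusted p = 5.91e-04). In both genes all MI libraries exceeded all sham libraries. Ciita counts as a percent of Cd74 counts were 2.56, 4.04 and 5.21 in sham against 4.66, 4.58 and 4.26 in MI, and the groups overlapped (exact permutation p = 0.6, 2-sided). Cd74 made up 32.2% to 33.8% of class II counts in sham, 31.4% to 32.3% in MI and 30.8% to 31.5% in MI+BPD.

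H2-DM removes the invariant chain remnant and edits the peptides of class II molecules in the endosome. Its alpha chain H2-DMa had 3.93, 3.41 and 3.13 CPM in sham and 10.4, 11.2 and 8.19 in MI, with 6.35, 10.6 and 9.14 in MI+BPD, a rise in MI of 1.51 ± 0.22 (adjusted p = 2.53e-04). The beta chain H2-DMb1 had 4.03, 4.11 and 3.58 CPM in sham and 13.1, 13.1 and 8.88 in MI, beside 7.25, 10.5 and 11.8 in MI+BPD, a rise of 1.58 ± 0.22 (adjusted p = 2.39e-04). The second beta chain, H2-DMb2, was much less abundant, with 0.366, 0.262 and 0.457 CPM in sham and 4.04, 2.04 and 1.20 in MI, with 1.02, 0.821 and 1.68 in MI+BPD, and rose by 2.71 ± 0.55 (adjusted p = 0.00188). MI replicate 1 was the highest library, and the value was 2.13 without it and 2.11 without it and MI+BPD replicate 1, called in both fits. The sham libraries alone had too few H2-DMb2 reads for the test, so its rise was favoured by the filter. There were 0.0638 to 0.128 H2-DMb2 counts per H2-DMb1 count in sham, 0.135 to 0.309 in MI and 0.0780 to 0.142 in MI+BPD.

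H2-O is an inhibitor of H2-DM, best known from B cells. Its beta chain H2-Ob had 1.19, 0.437 and 0.686 CPM in sham and 9.98, 3.62 and 3.41 in MI, beside 2.04, 2.77 and 3.05 in MI+BPD, and rose in MI by 2.88 ± 0.53 (7.38-fold; adjusted p = 9.75e-04). MI replicate 1 was far above the other MI libraries, and it was also the library with the most B cell marker reads. The H2-Ob call held in all 20 alternative settings, with log2 values of 2.17 to 3.64 and a largest adjusted p of 0.00652. Without MI replicate 1 it was 2.19. As with H2-DMb2, the sham libraries alone had too few H2-Ob reads for the test, which favoured a rise. The alpha chain H2-Oa had too few reads for the test, with 3, 1 and 0 counts in sham and 26, 25 and 7 in MI, with 8, 8 and 8 in MI+BPD. For each H2-DMb1 count there were 0.295, 0.106 and 0.191 H2-Ob counts in sham against 0.764, 0.276 and 0.383 in MI, beside 0.281, 0.263 and 0.258 in MI+BPD, and the value of 0.764 in MI replicate 1 stood alone.

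**Figure D2:**
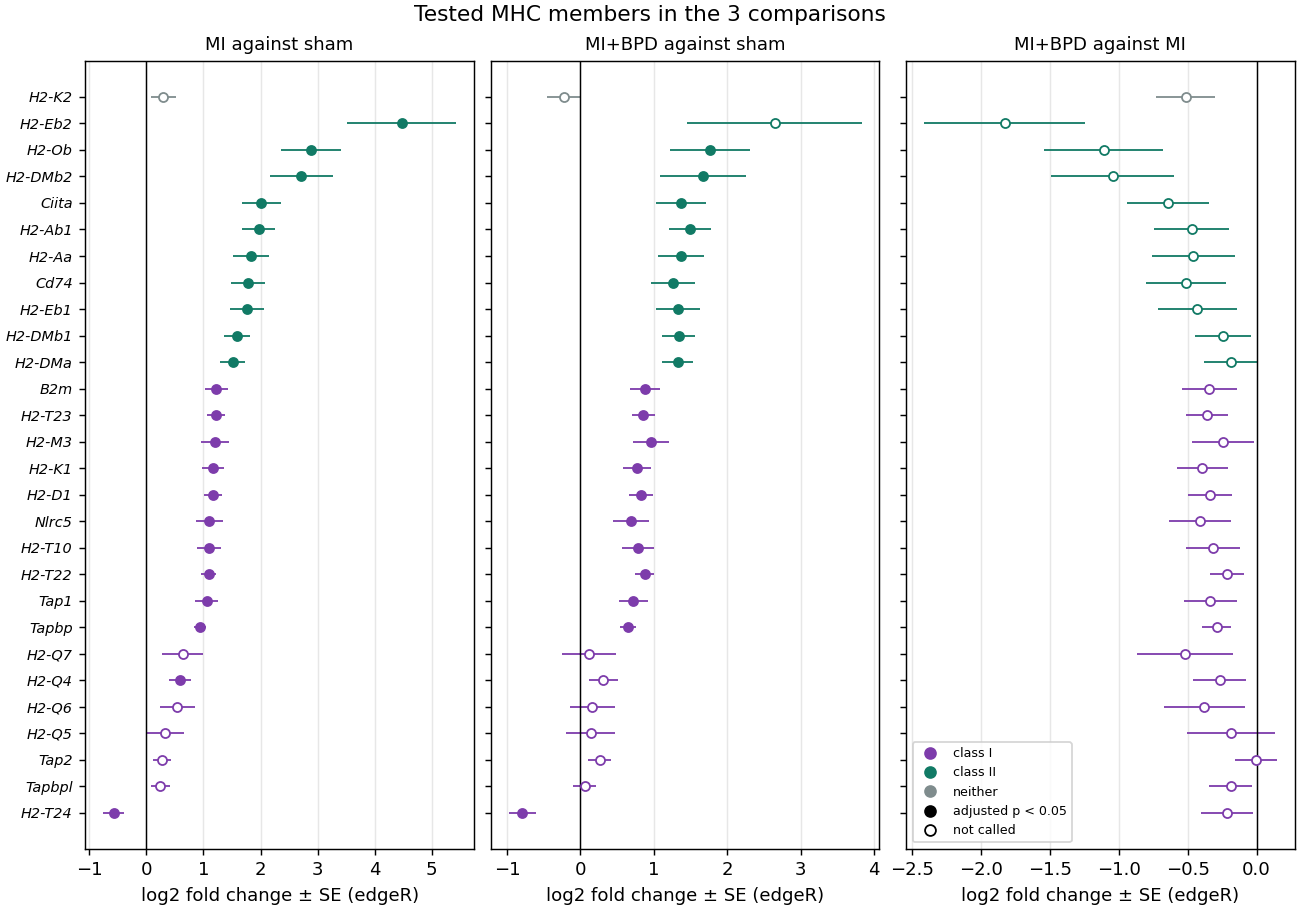
Log2 fold change with its standard error (bars) of the 28 tested members in each comparison from edgeR; filled points have an adjusted p under 0.05, open points do not, and colour marks the class. In MI against sham the class II members lie between 1.51 and 4.48 and the class I members between -0.57 and 1.22, and in MI+BPD against MI all 28 points are open and below 0. The 4.48 belongs to H2-Eb2, which entered the test only through its MI libraries.

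Ratios within a library do not depend on scaling factors, and 18 ratios of 2 single genes were computed, with 52 2-sided exact permutation tests over the 3 comparisons. With 3 libraries against 3 the smallest p is 0.1, so none can reach 0.05, and the smallest Benjamini-Hochberg adjusted p was 0.289. Cd74 counts per B2m count, a measure of class II against class I transcripts, were 0.317, 0.292 and 0.315 in sham against 0.462, 0.481 and 0.403 in MI, with 0.291, 0.414 and 0.469 in MI+BPD. All MI libraries were above all sham libraries (exact permutation p = 0.1), while MI+BPD replicate 1 was level with the lowest sham library. The ratio of H2-Eb1 to H2-Ab1 counts was 1.28, 1.32 and 1.28 in sham against 1.12, 1.11 and 1.11 in MI, beside 1.09, 1.16 and 1.17 in MI+BPD, so both beta chains rose but H2-Eb1 by less in every infarcted library (exact permutation p = 0.1 for MI against sham). In contrast, H2-Aa counts per Cd74 count spanned 0.760 to 0.826 in sham, 0.803 to 0.832 in MI and 0.824 to 0.855 in MI+BPD, and those groups overlapped between sham and MI.

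**Figure D3:**
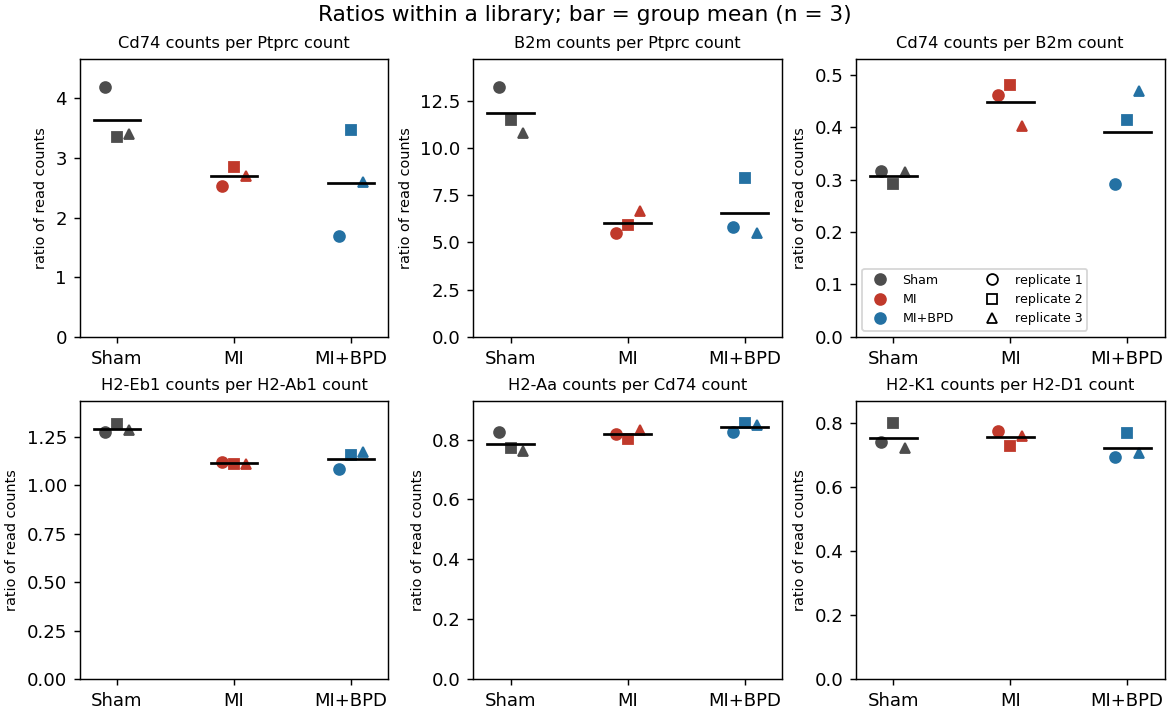
Ratios of read counts of 2 genes within each library, by group, with the axis from 0; each point is 1 library (shape gives the replicate number) and the bar the mean of 3 libraries. B2m per Ptprc lies at 10.8 to 13.2 in sham and 5.49 to 6.68 in MI, and H2-Eb1 per H2-Ab1 at 1.28 to 1.32 in sham and 1.11 to 1.12 in MI.

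Markers of leukocytes rose with the MHC genes. Ptprc (CD45, found on all leukocytes) had 17.9, 20.7 and 17.2 CPM in sham and 104, 90.9 and 64.6 in MI, with 52.4, 60.8 and 72.5 in MI+BPD, and rose in MI by 2.22 ± 0.19 (adjusted p = 2.97e-05). That is more than the 1.78 of Cd74 or the 1.22 of B2m. Cd74 counts per Ptprc count were accordingly lower in MI, at 2.54, 2.85 and 2.69, than in sham, at 4.19, 3.35 and 3.40 (exact permutation p = 0.1). B2m counts per Ptprc count were 13.2, 11.5 and 10.8 in sham against 5.49, 5.91 and 6.68 in MI, beside 5.83, 8.38 and 5.52 in MI+BPD, with no overlap between sham and the other groups (exact permutation p = 0.1 for each). Cd74 per count of the macrophage receptor Csf1r was 1.0 to 1.47 in sham and 1.66, 2.09 and 1.87 in MI, higher in every MI library (exact permutation p = 0.1). Cd74 per count of the dendritic cell marker Flt3 went the other way. It was 274, 396.5 and 768 in sham and 159, 125 and 126 in MI (exact permutation p = 0.1), with very few Flt3 reads in sham.

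The marker counts that follow stand beside 37% of all genes called higher in MI than in sham and 31.9% called lower. Of 14 macrophage and monocyte markers 11 rose in MI and 0 fell (10 and 3 without MI replicate 1), with a summed level of 359.5 to 429 CPM in sham and 680.2 to 1198 in MI. Ccr2, of recruited monocytes, rose by 2.79 ± 0.17, Cd14 by 1.99 ± 0.22, Fcgr1 by 1.77 ± 0.21 and C1qa by 1.44 ± 0.19. The 3 markers without a call all had estimates below 0, down to -1.27, so the list did not move as 1. Of 8 tested dendritic cell markers 6 rose and 1, Zbtb46, which holds most of the list's summed CPM in sham, fell (0 without sham replicate 1 or sham replicate 2, or with library totals only), with summed levels of 28.1 to 30.8 CPM in sham and 35.8 to 42.3 in MI. Itgax rose by 3.76 ± 0.30, Cd209a by 3.75 ± 0.39, Flt3 by 3.28 ± 0.41 and Xcr1, with 1 sham count, from 0.0305 ± 0.0528 to 1.20 ± 0.282 CPM (SD, n = 3). All 8 B cell markers rose, from a summed 2.01 to 2.84 CPM in sham to 6.49 to 71.3 in MI, Cd22 by 4.37 ± 0.83, Cd79b by 3.43 ± 0.88 and Blk by 3.67 ± 0.99. Without MI replicate 1 these were 3.24, 1.91 and 2.53. That count fell to 5 without MI replicate 1 or sham replicate 1, to 4 without sham replicate 2 or sham replicate 3, and to 4 in both DESeq2 and limma-voom. All 8 tested T and NK cell markers rose, from 0.991 to 1.84 CPM in sham to 5.66 to 10.9 in MI, with Cd3g at 2.83 ± 0.49 and Lck at 2.78 ± 0.58. For most of the B cell and the T and NK cell markers the sham libraries alone had too few reads for the test. The same holds for Flt3 and Xcr1. Such markers entered the test through infarcted libraries, so their rise was favoured by the filter. No marker of these lists was at 0 over a whole group.

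Of 7 endothelial markers 4 fell in MI and 0 rose, with summed levels of 961 to 1191 CPM in sham and 622 to 817 in MI, Kdr by 1.19 and Tie1 by 0.56 on the log2 scale. Of all genes 31.9% were called lower and 37% higher. With library totals only, 4 were higher and 1 lower, Tie1 turned to 0.17 (adjusted p = 0.236), and the median gene stood at 0.81. Without sham replicate 1 or MI replicate 1, 2 endothelial markers were lower. All 7 cardiomyocyte markers fell, from a summed 60600 to 62764 CPM to 12501 to 22105, and all 7 fibroblast markers rose, from 1002 to 1143 to 11842 to 16484 CPM. The part of these cell type markers in the MHC result was not tested.

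**Figure D4:**
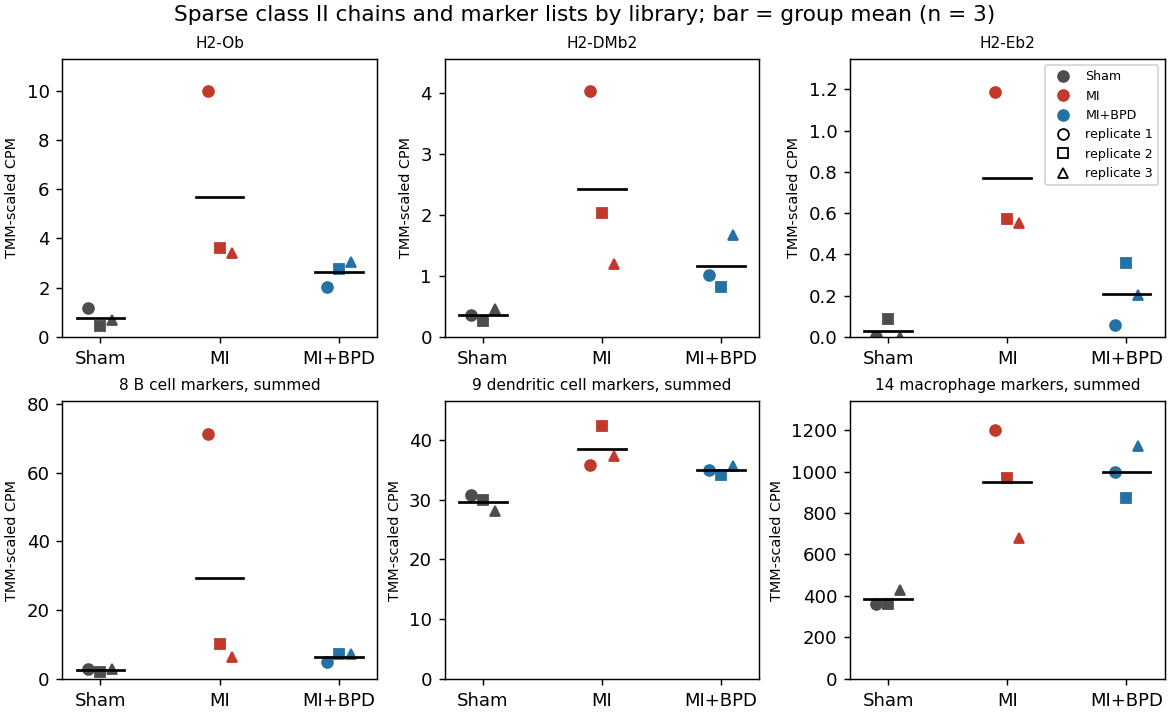
TMM-scaled CPM of 3 class II chains of low level (upper row) and of summed marker lists for B cells, dendritic cells and macrophages with monocytes (lower row), by group, on axes from 0; each point is 1 library and the bar the mean of 3. MI replicate 1 is the highest library for H2-Ob (9.98 CPM), H2-DMb2 (4.04), H2-Eb2 (1.19) and the B cell sum (71.3), whereas the macrophage sum in MI+BPD replicate 1 lies between those of the other MI+BPD libraries. Most of the dendritic cell sum in sham and MI+BPD is Zbtb46, which was called lower in MI, so the panel does not show the rise of the other markers of that list.

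Of 11 other genes of the class II pathway tested, 9 (81.8%) rose in MI and 0 fell, beside 37% and 31.9% of all genes. Ctss (cathepsin S, which cuts the invariant chain) had 20.1, 25.0 and 22.3 CPM in sham and 179, 161 and 109 in MI, with 98.8, 125 and 137 in MI+BPD, and rose by 2.73 ± 0.20 (adjusted p = 1.64e-05). Ifi30, a thiol reductase of the endosome, went from 5.10 ± 0.614 to 21.4 ± 3.48 CPM (SD, n = 3), a rise of 2.07 ± 0.15. Marchf1, a ubiquitin ligase that lowers surface class II, rose by 1.86 ± 0.17 and the costimulator Cd80 by 3.05 ± 0.43. All 4 calls held in all 20 alternative settings.

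Of 17 other genes of the class I pathway tested, 7 rose and 7 fell in MI, 41.2% each way, which is near the 37% and 31.9% of all genes. With library totals only, where 85.6% of all called genes were higher, 11 were higher and 2 lower. The difference between the lists of both pathways was not tested. The interferon-inducible proteasome subunits Psmb8 and Psmb9 rose by 0.82 ± 0.17 (adjusted p = 0.00216) and 0.56 ± 0.12 (adjusted p = 0.00310). Psmb6, a subunit of the standard proteasome, fell by 0.76 and the proteasome activator Psme1 by 1.12 on the log2 scale, and with library totals only Psmb6 was at -0.04 and not called (adjusted p = 0.684). Psme1 had 102 ± 3.58 CPM in sham against 46.6 ± 5.35 in MI (SD, n = 3). Sec61a1, of the endoplasmic reticulum channel, rose by 1.26 ± 0.09 and Pdia3, of the peptide-loading complex, by 1.18 ± 0.14. The peptide trimmer Erap1 had a log2 difference of -0.05 ± 0.09 (adjusted p = 0.603), which became 0.68 (adjusted p = 2.32e-04) with library totals only, below the 0.81 of the median gene.

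Of 16 tested genes for transcription of both classes and for interferon-gamma signalling, 7 (43.8%) rose and 5 (31.2%) fell, again near the 37% and 31.9% of all genes, and with library totals only 12 were higher and 1 lower. Rfx5, which binds the X box, rose by 0.91 ± 0.16 (adjusted p = 7.16e-04), and Irf8, a factor of myeloid cells, by 1.52 ± 0.14 (adjusted p = 4.48e-05). Irf1, the interferon-induced activator of class I and Ciita, rose by 0.25 ± 0.10 (adjusted p = 0.0453), a call that ended in 12 of 20 alternative settings, with a largest adjusted p of 0.155. The receptor chain Ifngr1 rose by 0.94 ± 0.15 while Ifngr2 fell by 0.98. Nfyc, a subunit of NF-Y, fell by 0.96, a call lost with library totals only (-0.23, adjusted p = 0.0899). The interferon-gamma gene itself, Ifng, had 0, 0 and 0 counts in sham against 0, 0 and 2 in MI, beside 0, 0 and 1 in MI+BPD.

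Of 13 tested genes known to be induced by interferon-gamma, 4 (Gbp2, Gbp3, Irgm1 and Irgm2) rose and 2 (Cd274 and Iigp1) fell, 30.8% and 15.4% beside 37% and 31.9% of all genes. Their median log2 fold change was -0.01, beside 0.07 over all genes. Gbp3 rose by 0.64 ± 0.18 (adjusted p = 0.0107), Gbp2 by 0.64 ± 0.20 (adjusted p = 0.0154) and Irgm2 by 0.41 ± 0.16 (adjusted p = 0.0419). Gbp2 lost its call without sham replicate 3 (adjusted p = 0.0654), and Irgm2 without sham replicate 1, sham replicate 3, MI replicate 1, MI replicate 2 or MI+BPD replicate 3 (0.0523 to 0.151). Cd274 (PD-L1) fell by 0.71 (SE 0.15; adjusted p = 0.00227), and with library totals only stood at 0.02 (adjusted p = 0.913), below the 0.81 of the median gene. These counts moved with the processing: over 20 alternative settings 2 to 6 genes were called higher and 0 to 4 lower, with 2 higher in DESeq2, with median-ratio factors, and without sham replicate 1, sham replicate 3, MI replicate 1, MI replicate 2, MI+BPD replicate 3, or MI replicate 1 with MI+BPD replicate 1.

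The comparison of MI+BPD with MI asks whether the treatment goes with a different level of these genes in infarcted hearts. None of the 28 tested members passed the test, and neither did any other gene: 0% of 15138 genes were called higher and 0% lower in edgeR, where the smallest adjusted p was 0.369. All 28 members had a lower estimate in MI+BPD, with a median log2 fold change of -0.31 over class I and -0.49 over class II, against 0.00 over all genes. At an unadjusted p under 0.05, 2 class I members, 3 class II members and H2-K2 were lower, 6 of 28, where 4.88% of all genes were lower. The 3 MI+BPD libraries lay below the 3 MI libraries for 3 of the 28 members (H2-Ob, H2-Eb2 and H2-K2), where that held for 7.32% of all genes. Both counts include H2-Eb2, which had enough reads for the test only through its MI libraries, so a high MI value was favoured. DESeq2 called 51 genes and limma-voom 992, with 0 members and 1 member (Tapbp) among them.

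For the abundant members the estimates were at most a few times their standard errors. Tapbp differed by -0.29 ± 0.10 (unadjusted p = 0.0204, adjusted p = 0.369) and H2-T23 by -0.36 ± 0.15 (unadjusted p = 0.0436). H2-D1 differed by -0.34 ± 0.16 with a 95% interval of -0.73 to 0.05, and B2m by -0.34 ± 0.20 with an interval of -0.83 to 0.14. Among class II genes, Cd74 differed by -0.51 ± 0.29 with an interval of -1.22 to 0.20, and Ciita by -0.64 ± 0.30 with an interval of -1.37 to 0.09. H2-Ob differed by -1.11 ± 0.43 (unadjusted p = 0.0298), H2-DMb2 by -1.05 ± 0.45 (0.0428) and H2-Eb2 by -1.83 ± 0.59 (0.0118), each at an adjusted p of 0.369. Tap2 had the smallest estimate, at 0.00 below MI to 2 decimals, with a 95% interval of -0.37 to 0.37.

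These estimates moved with single libraries. MI+BPD replicate 1 was the lowest MI+BPD library in 14 of 15 class I members and 8 of 8 class II members given in full, and MI replicate 1 the highest MI library in 14 of 15 class I members. Without MI+BPD replicate 1 the medians were -0.24 over class I and -0.24 over class II, and without both it and MI replicate 1 they were -0.02 and -0.13. Other libraries moved them the other way, to -0.45 and -0.74 without MI+BPD replicate 2 and to -0.44 and -0.68 without MI replicate 3. Without MI replicate 3, the lowest MI library in 12 of 15 class I and 8 of 8 class II members, 1353 genes were called in all, 3 members among them: Tapbp (-0.39, adjusted p = 0.0334), H2-T23 (-0.50, adjusted p = 0.0473) and H2-M5 (-1.89, adjusted p = 0.0476). H2-M5 had enough reads for the test there only through MI replicates 1 and 2 (24 and 20 counts). That filter favoured a high MI value, so the H2-M5 call carries no weight of its own.

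In MI+BPD replicate 1 class II transcripts were low beside leukocyte and macrophage transcripts as well as in CPM. Cd74 counts per Ptprc count were 1.70, 3.48 and 2.59 in the MI+BPD libraries, and per Csf1r count 0.728, 2.01 and 1.49. The summed macrophage and monocyte markers of MI+BPD replicate 1 were 999 CPM, between the 873 and 1123 of the other MI+BPD libraries. Among dendritic cell markers, Itgax was lowest in that library (4.37, 6.47 and 6.15 CPM in the MI+BPD libraries), whereas Zbtb46, which fell in MI and makes up most of the list's sum in these 3 libraries, was highest in it (23.6, 19.7 and 21.4 CPM). Its B cell sum of 4.97 CPM was below the 7.13 and 7.31 of the others. Its T and NK cell sum of 4.13 CPM was below the 8.83 and 7.06 of the others. Ptprc differed between MI+BPD and MI by -0.48 ± 0.17 (unadjusted p = 0.0212, adjusted p = 0.369) and the cardiomyocyte markers by a median of 0.60, none of them called. The B cell markers differed by a median of -2.31, also without a call. MI replicate 1 held most of the B cell marker reads in MI, and without that library Cd22 went from -1.37 to -0.23, Cd79b from -1.80 to -0.28 and Blk from -1.32 to -0.19. The part of cell type markers and of heart muscle transcripts in the lower MHC estimates was not tested.

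MI+BPD was also set against the same sham libraries that served for MI, so these values are not independent of those above. Of 17 class I members 10 were higher and 1 (H2-T24) lower, and of 10 class II members 9 were higher, where 31.8% of all genes were called higher and 27.8% lower (53.4% of the called genes higher, or 86.8% with library totals only). The median log2 fold change was 0.69 over class I, 1.37 over class II and 0.04 over all genes. H2-D1 differed from sham by 0.83 ± 0.16 in MI+BPD beside 1.17 ± 0.16 in MI, and B2m by 0.88 ± 0.20 beside 1.22 ± 0.20. H2-Aa differed by 1.37 ± 0.31 beside 1.83 ± 0.31, Cd74 by 1.27 ± 0.30 beside 1.78 ± 0.30, and Ciita by 1.37 ± 0.34 beside 2.01 ± 0.34. H2-Q4 was not called in MI+BPD (0.31 ± 0.20, adjusted p = 0.192), nor was H2-Eb2 (ratio of counts to sham 7.62, counting interval 1.13 to 326; adjusted p = 0.0806). H2-Eb2 gained a call in limma-voom (adjusted p = 0.0164), with library totals only (0.0377), without MI+BPD replicate 1 (0.0412) and without it and MI replicate 1 (0.0265). H2-Q4 gained one with library totals only (adjusted p = 0.00947) and without both of those libraries (0.0357). Tap2, at 0.27 ± 0.15 (adjusted p = 0.166), gained one in limma-voom (0.34, adjusted p = 0.0322), with library totals only (0.80, adjusted p = 0.00516) and without both libraries (0.31, adjusted p = 0.0413), and Tapbpl gained one with library totals only (0.59, adjusted p = 0.0296), near the 0.57 of the median gene. Whether the 2 groups differ in these genes is the comparison of MI+BPD with MI, which called none.

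Some of these calls depended on single libraries. Nlrc5 was higher in MI+BPD by 0.69 ± 0.24 (adjusted p = 0.0333), and lost its call without any 1 of the 3 sham libraries, MI+BPD replicate 2 or MI+BPD replicate 3 (adjusted p = 0.0646 to 0.117). H2-DMb2 (1.67 ± 0.59, adjusted p = 0.0336) lost its call without any 1 sham library or MI+BPD replicate 3 (0.0571 to 0.104), and H2-Ob (1.77 ± 0.54, adjusted p = 0.0191) without sham replicate 2, sham replicate 3 or MI+BPD replicate 3 (0.0514 to 0.0688). Tap1 (0.72 ± 0.20, adjusted p = 0.0120) lost its call without sham replicate 3 (0.0526). In the pathway lists 8 of 11 class II pathway genes were higher and 0 lower, 5 of 17 class I pathway genes higher and 7 lower (29.4% and 41.2%), 7 of 16 transcription genes higher and 4 lower (43.8% and 25%), and 0 of 13 interferon-gamma induced genes higher and 2 lower, beside 31.8% and 27.8% of all genes. With library totals only, 9 class I pathway genes were higher and 2 lower, 11 transcription genes higher and 1 lower, and 5 interferon-gamma induced genes higher and 0 lower. Ctss (2.42 ± 0.20) and Ifi30 (1.91 ± 0.15) were among the higher, and Psmb9 was not called (0.24 ± 0.13, adjusted p = 0.132). Among B cell markers 1 of 8, Cd22, was called higher in MI+BPD than in sham (4 of 8 without MI replicate 1), with a summed level of 4.97 to 7.31 CPM in MI+BPD. Of 14 macrophage and monocyte markers 10 were called higher and 1 lower, with log2 estimates from -2.06 to 2.55.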

How the data were processed

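Gene counts of 9 left ventricle libraries were used as deposited by the authors: whole-number read counts per gene symbol, not normalized. Per the submitters' processing notes, STAR was used (version not given in the sources used here) and the builds mm10, GRCm39 and mm39 are named without a role. How reads were counted, with what strand setting and on which annotation, is not given in the sources used here. No molecular identifiers are described, so counting intervals and limits cover counting error only.

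Samples were grouped by their GEO labels. edgeR 4.0.16 in R 4.3.3 was run with TMM factors, filterByExpr (count of at least 10, total of at least 15) and a quasi-likelihood fit with the robust option over all 9 libraries with 6 residual degrees of freedom. The 3 contrasts were tested, p-values were adjusted by Benjamini-Hochberg over 15138 genes, and calls were made at 0.05. Errors after ± are standard errors of log2 fold changes unless marked SD. The fit was tested on simulated data. Alternatives used DESeq2 1.42.0, limma 3.58.1 (voom), other scalings and filters, a replicate term and left-out libraries.

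The members, the pathway and marker lists and the alternatives were chosen with earlier results of these data known. Every member is accounted for. Those tested with a mean of at least 5 CPM in a group are given in every library, as are H2-DMb2, H2-Eb2, H2-Oa and the sparse class I genes, which were chosen after their values were seen. From each other list up to 4 genes of smallest adjusted p in MI against sham are named, beside Irf1, Ifng, Rfx5, Psmb8, Psmb9, Erap1, Ctss, Ifi30 and Ptprc; 1 further gene of that rule and a motif are not reported here. Irgm1, Iigp1 and Zbtb46 were named after their values were seen. Promoter sequences are RefSeq's (GRCm38.p6), and gene lengths are exon lengths of GENCODE M21.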

Additional observations from a re-analysis of the deposited data

How the results depend on the processing

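The 28 tested members were recomputed under 20 alternative settings. A change of direction was counted only where the main or the alternative value was called. In MI against sham, 547 of 559 pairs of member and setting were kept by that rule, and 20 of 28 members in every setting. Another 5 pairs lost and 6 gained a call and 1 reversed. In MI+BPD against MI 556 of 559 stayed without a call and 3 gained one, and direction was not counted for those without a call. Some members changed sign there. Leaving aside library totals, Tap2 spanned -0.09 to 0.24 and H2-Q7 -0.94 to 0.06, while H2-D1 spanned -0.47 to -0.12 and Cd74 -0.74 to -0.13. In MI+BPD against sham 533 of 558 were kept by the same rule, 15 lost a call and 10 gained one. Scaled by library totals alone, 0 class I members were lower in either comparison with sham, H2-T24 turned to 0.15 in MI, Erap1 to 0.68 in MI and 0.48 in MI+BPD, Cd274 to 0.0171 and Iigp1 to 0.23 in MI, and Tie1 to 0.17 in MI and 0.0883 in MI+BPD. Since that scaling lifts the median gene to 0.81 in MI and 0.57 in MI+BPD, these values all lie below the median gene, and the class medians above it. In limma-voom 1 class I member was lower in MI+BPD than in MI. Over all genes that comparison called 0 in edgeR, 51 in DESeq2, 992 in limma-voom and 1353 without MI replicate 3. Leaving out 1 library at a time gave 0 to 1 lower class I members in MI against sham and 0 to 3 in MI+BPD against MI. Those 3 include H2-M5, which entered that fit only through MI libraries. The cause was not tested.

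The labels do not say whether replicate numbers pair the samples. Of 9 same-numbered pairs across groups, 2 had a correlation of deviations over 0.1 (range -0.16 to 0.19), which with 3 libraries a group cannot settle it. Those 2 were MI with MI+BPD for replicate 1 (0.14) and replicate 2 (0.19), while replicate 3 had -0.16. With the replicate block, 11 class I and 10 class II members were higher in MI than in sham, 9 and 9 in MI+BPD than in sham (Nlrc5 lost its call there, adjusted p = 0.0510), and 0 in each class were lower in MI+BPD than in MI. Depth limits the 12 untested members with counts, whose libraries hold at most 58 reads.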
